A study of Anser cygnoides with 12 samples.

Results

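This section follows 322 gene models of 1 goose chromosome, called chr25 in the model IDs, in breast muscle with high or low intramuscular fat. The models were selected on measured abundance: of 443 chr25 models in a table of 23065 models, those with a mean of 1 to below 300 CPM (the count over the library total times 1000000, averaged over 12 libraries) were kept. A further 114 chr25 models lay under the lower limit and 7 at or over the upper one. The models are ordered by the number that follows the chromosome in the ID, which runs from 2 to 867, and are named below by that number. The chromosome itself was chosen from earlier results of the same libraries, in which its median level stood higher in the high-fat group, so its summed shift is described here without a test.

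RNA-seq libraries came from oligo(dT)-captured mRNA of the breast (pectoral) muscle of Anser cygnoides, here the Xingguo grey goose. The labels give 5 libraries to high intramuscular fat (high_IMF: M001, M006, M0011, M0027 and M0035) and 7 to low intramuscular fat (low_IMF: F001, F006, F009, F0010, F0011, F0013 and F0016). They state no age, sex, diet or treatment, and do not explain the leading letters M and F, which follow the groups. Nothing in them ties a library to its own bird, so p-values measure only the spread between libraries, which may be technical. In such tissue samples, fewer cells of a type and less RNA per cell cannot be told apart.

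Intramuscular fat is the fat laid down between and within the fibres of a muscle, mostly in adipocytes of its connective tissue, and birds are selected for it because it bears on meat quality. Bird genomes hold a few large chromosomes and many small, gene-dense and GC-rich ones. IDs that begin with evm.model have the form given by EVidenceModeler, a program that merges several lines of evidence into gene models. The number in an ID gives order along the assembled sequence, not distance in bases. Of the 443 chr25 IDs, 0 were found in the reference gene table, and the deposited table pairs no ID with a gene name. The genes behind the numbers are therefore not named here, no marker of a cell type could be checked, and no sequence or base position is given.

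Library totals ran from 14623374 to 18458606 counts in high_IMF and from 13481727 to 17750379 in low_IMF. M001 and M0011 differed from the rest in composition. Their 10 most abundant models held 66.0% and 54.4% of the counts, against 32.1% to 44.7% in the other 10 libraries. Their TMM factors, which rescale a library for such composition, were 0.499 and 0.682, against 1.01 to 1.36 in the others. CPM of single models below are scaled by the total and this factor, and values that rest on M001 and M0011 are also given without them.

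The values at the limits of the band were as follows, given without a test. Just inside the lower limit, models 335 and 398 had means of 1.00 and 1.01 CPM and log2 fold changes (high_IMF over low_IMF) of 0.33 and 0.02. Just outside it, models 239 and 423 had 0.976 and 0.897 CPM and log2 fold changes of -0.53 and -1.09. Models 51 and 294, just inside the upper limit at 287 and 271 CPM, had log2 fold changes of 0.28 and -0.04. Just outside the upper limit, models 116 and 455 at 335 and 339 CPM had 0.45 and 0.54. All 322 members passed the filter on low counts, 316 of them had a count in every library, and 6 had 0 counts in at least 1 library.

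Among the 322 models, more passed the test as higher in high_IMF than as lower. In edgeR's quasi-likelihood test, 41 models (12.7%) were higher and 22 (6.83%) were lower at an adjusted p under 0.05. Over all 14031 models tested, 8.47% were higher and 9.53% were lower. Because the chromosome was chosen with its shift known, nothing is read from the difference between these shares. The 41 higher models had a median log2 fold change of 1.05 and the 22 lower ones -0.90, and 22 and 8 of them changed at least 2-fold. Every high_IMF library lay above every low_IMF library for 10 members (3.11%, against 2.88% of all models tested). The reverse held for 11 members (3.42%, against 4.9%). Of those 21 models 20 were called, and model 371 was the exception, with a log2 fold change of -0.45.

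With M001 and M0011 left out, fewer models were called, both on chr25 and over all models. Higher models made up 65.1% of the members called with all 12 libraries and 54.1% of those called without M001 and M0011. Over all models tested with 12 libraries, 1188 (8.47%) were higher and 1337 (9.53%) lower. Without these 2 libraries, 20 members were called higher and 17 lower (edgeR). Of the 14656 models tested in that fit, 596 (4.07%) were higher and 983 (6.71%) lower. The share of higher models among those called thus also fell over all models, and its fall on chr25 is not read as particular to chr25. Of the 63 original calls, 26 were also made there. Without F001 and F009, 22 members were called higher and 9 lower, against 4.17% and 6.22% of the 13770 models tested, and 29 of the 63 were also called.

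The shift in level was spread over the distribution of the members and was also present in models that were not called. The median log2 fold change was 0.12 in the 322 members and -0.02 in the 12724 models tested in the same abundance band. The members lay above the band by 0.21 at the 10th percentile, 0.10 at the 25th, 0.14 at the median, 0.13 at the 75th and 0.15 at the 90th. Among the 259 members that were not called, the median was 0.09, against -0.01 in the band models that were not called. A log2 fold change above 0 was seen in 185 members (57.5%), against 48.8% of the band.

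**Figure D1:**
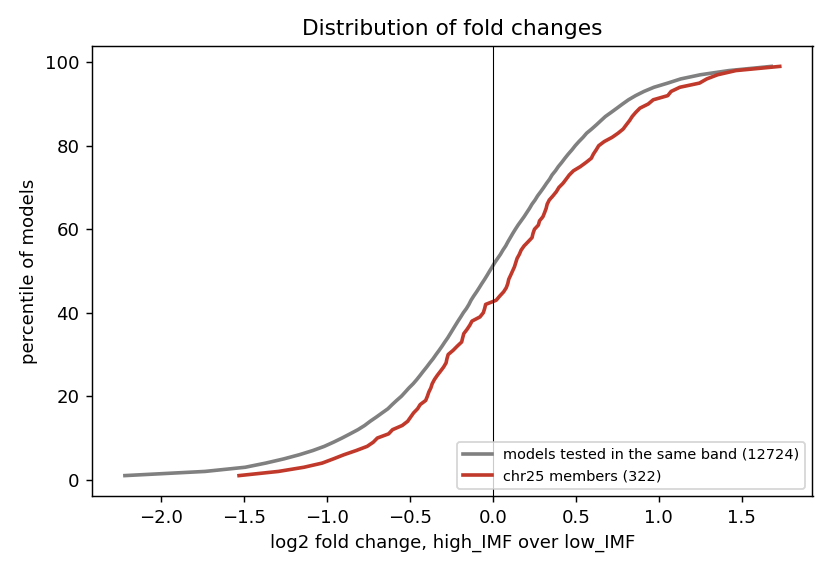
The percentile of models (vertical axis, 1 to 99) is plotted against the log2 fold change of high_IMF over low_IMF for the 322 chr25 models (red) and for the 12724 models tested in the same abundance band (grey). The red curve lies to the right of the grey one from the 10th percentile to the 90th, with medians of 0.12 and -0.02.

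Other chromosomes had medians of similar size. Of 39 chromosomes with at least 20 models in the band, chr25 had the third highest median log2 fold change, after chr28 (0.15) and chr36 (0.14). With M001 and M0011 left out, the median of chr25 was 0.08, rank 4, and that of the band 0.00084. The members then lay 0.077 above the band at the median, against 0.14 with all 12 libraries. The differences between chromosomes were not tested.

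By library, the shift was small and the groups met at their edges. Each model was expressed as its log2 deviation from its mean over the 12 libraries, less the library's median over all models of the band. The median over the 322 models was 0.14 in M001, 0.10 in M0011, 0.10 in M0027, 0.04 in M0035 and 0.00 in M006 (0.0039 before rounding). It was 0.01 in F009, -0.01 in F0016, -0.04 in F006, -0.06 in F0010, -0.08 in F0013, -0.10 in F001 and -0.11 in F0011. M006 thus lay below F009, the 1 overlap between the groups. The 5 high_IMF libraries averaged 0.08 ± 0.05 (SD, n = 5). The 7 low_IMF libraries averaged -0.06 ± 0.05 (SD, n = 7), and the groups differed by 0.13. Over the members that were not called the difference was 0.07. From 50.6% (M006) to 58.1% (M0011) of the models lay above 0 in high_IMF libraries, and from 40.7% (F001) to 50.9% (F009) in low_IMF libraries.

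Along the chromosome the group difference varied between blocks. Whether it varied more than it would in a shuffled order was not tested. The members were cut into 6 consecutive blocks of 53 or 54, a division made with the data known. The difference in block medians was largest in block 2 (numbers 135 to 258, 0.33) and block 5 (numbers 532 to 661, 0.24). It was 0.15 in block 1 (numbers 2 to 134), 0.08 in block 4 (406 to 531), 0.03 in block 6 (662 to 867) and -0.06 in block 3 (261 to 405). The smaller of these moved with single libraries. Block 6 ran from -0.01 (without M0027) to 0.08 (without F009) as each library was left out in turn, and block 3 from -0.09 (without F0013) to -0.02 (without F0011). Block 4 ran from 0.05 (without F0011) to 0.12 (without M0035). Block 5 ran from 0.13 (without M001) to 0.32 (without M0027), block 1 from 0.11 to 0.18 and block 2 from 0.24 to 0.40. Called models followed the same order only loosely. Blocks 2 and 5 held 9 higher models each, with 1 and 3 lower ones, while block 3 held 3 higher and 6 lower. Blocks 1, 4 and 6 held 7, 6 and 7 higher and 3, 4 and 5 lower models. Over all models tested, 8.47% were higher and 9.53% lower. Without M001 and M0011 the order was another. Blocks 1 to 6 then held 2, 4, 0, 3, 2 and 9 higher and 0, 2, 5, 2, 4 and 4 lower models, against 4.07% and 6.71% over all models. Block 6 thus held the most higher models in that fit.

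The large differences in blocks 2 and 5 came mainly from M001 and M0011. Without both, the differences were 0.14 in block 2 and -0.0095 in block 5. In block 2 the medians were 0.50 in M001 and 0.37 in M0011, and 0.16, 0.03 and -0.01 in M0035, M0027 and M006. The low_IMF libraries of that block ran from -0.33 in F0010 to 0.01 in F001, so M006 lay below F001. In block 5 the medians were 0.63 in M001 and 0.41 in M0011. M0035, M006 and M0027 stood at 0.06, -0.14 and -0.24 there, within the low_IMF range of -0.33 (F0010) to 0.09 (F006). Block 1 had another order, since M0027 (0.22) and M0035 (0.13) were highest and M001, M0011 and M006 stood at 0.03, 0.03 and 0.04, against -0.13 (F0011) to 0.06 (F0010) in low_IMF. In blocks 3, 4 and 6 the groups also overlapped.

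With M001 and M0011 left out, the median log2 fold changes of blocks 1 to 6 were 0.12, 0.10, 0.08, 0.06, -0.00050 and 0.0031. With all 12 libraries they were 0.13, 0.24, 0.02, 0.10, 0.29 and -0.05. The peaks in blocks 2 and 5 were therefore lower or gone without these 2 libraries. Block 3 rose to the level of its neighbours in median log2 fold change, but not in the difference in block medians. By that difference it was still the lowest block without M001 and M0011, at -0.03 against 0.14 in block 2 and 0.03 in block 4.

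Models on unplaced contigs showed the same libraries at their extremes. The median deviation of the 919 contig models in the band was 0.49 in M001 and 0.27 in M0011, the 2 highest, and -0.40 in F0010, the lowest. In blocks 2 and 5 of chr25 the same 3 libraries were the highest, the second highest and the lowest. The part of library composition in the block values was not tested.

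**Figure D2:**
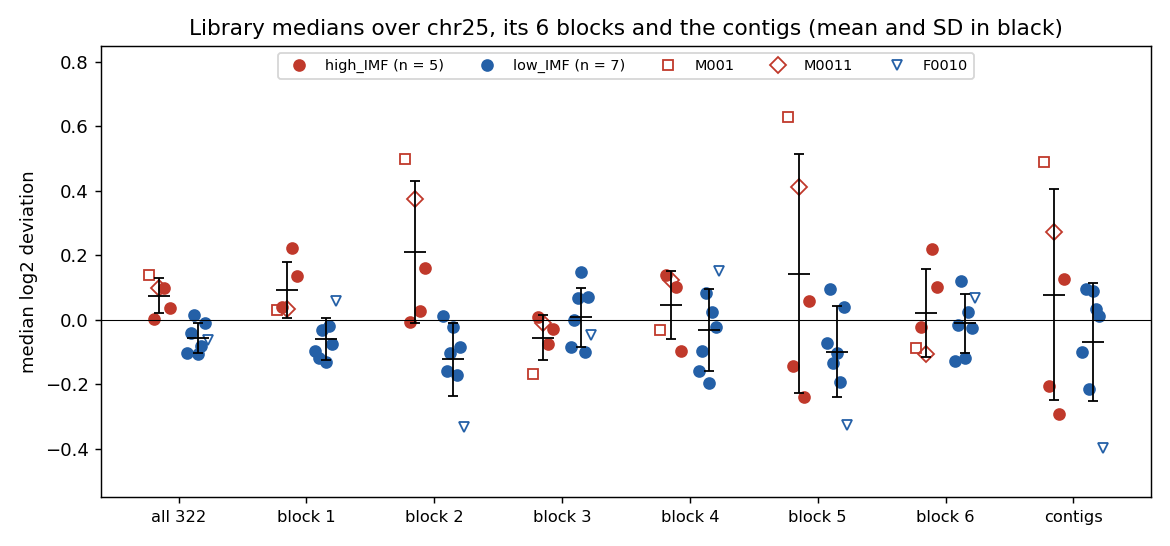
Each point is the median log2 deviation of 1 library over all 322 models, over each of 6 consecutive blocks of chr25 and over 919 contig models (red, high_IMF, n = 5; blue, low_IMF, n = 7; black, group mean and SD). M001 (open square) and M0011 (open diamond) stand highest and F0010 (open triangle) lowest in block 2, block 5 and the contigs.

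A finer view used the median over each 11 consecutive members. Of 312 such windows, which overlap, 202 (64.7%) had a median log2 fold change above 0, against 44.7% of the 9378 windows on all chromosomes, and chr25 ranked 5 of 39 by this share. The longest runs of windows above 0 spanned numbers 459 to 558 (41 windows), 141 to 253 (40 windows) and 322 to 425 (30 windows). The longest runs below 0 spanned numbers 708 to 867 (22 windows) and 407 to 478 (20 windows). The longer stretches were partly broken without M001 and M0011. Of the 41 windows from 459 to 558, 27 were then above 0, with medians of -0.22 to 0.29, and of the 40 from 141 to 253, 34 were. All 30 windows from 322 to 425 were above 0 there as well. Of the 22 windows from 708 to 867, 11 were still below 0, and of the 20 from 407 to 478, 14 were.

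**Figure D3:**
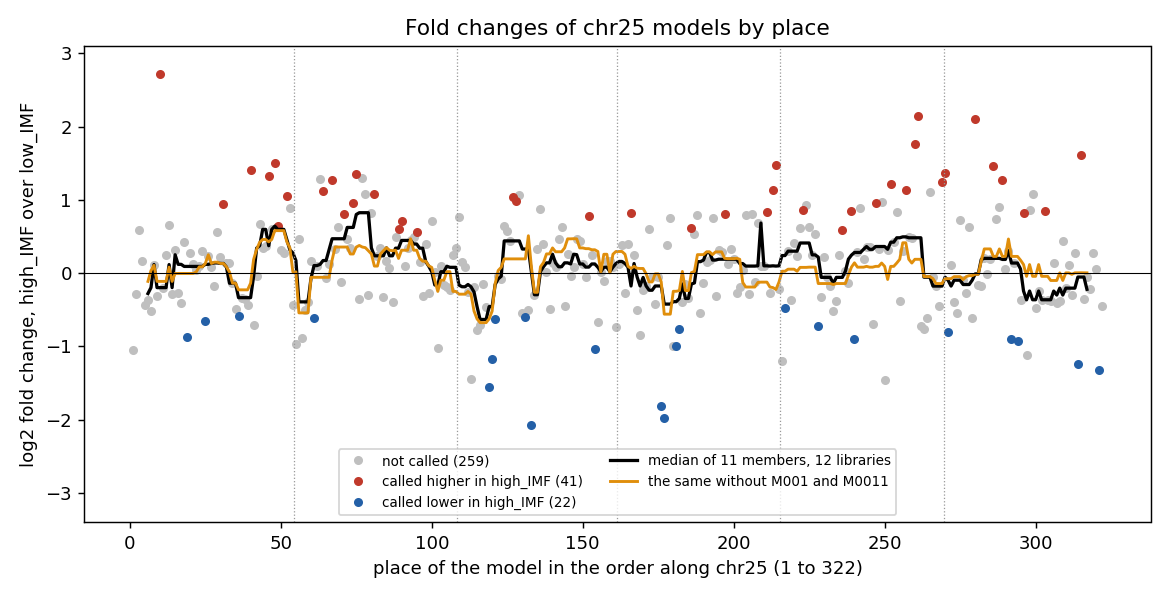
The log2 fold change of each of the 322 models (points; red, 41 called higher; blue, 22 called lower; grey, 259 not called) is plotted against its place in the order. The lines give the median of 11 consecutive models with all libraries (black) and without M001 and M0011 (orange), and dotted lines part the 6 blocks. The black line is highest at 0.82 in block 2 and lowest at -0.63 in block 3.

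The highest median log2 fold change, 0.82, was shared by 4 overlapping windows between models 184 and 211, of which the first, models 184 to 208, is described. Of its 11 members 9 had a fold change above 0, and 4 were called higher (184, 189, 190 and 208). Its median deviation was 0.97 in M001, 0.70 in M0011, 0.26 in M0027, 0.21 in M0035 and 0.01 in M006, and from -0.51 (F0010) to 0.02 (F001) in low_IMF. Its median log2 fold change was 0.38 without M001 and M0011. Model 184 was high in every high_IMF library, at 68.7 to 93.2 CPM (median 81.1) against 40.5 to 60.6 CPM (median 46.4) in low_IMF. Its log2 fold change was 0.80 (SE 0.15, edgeR adjusted p = 0.00375). Model 192, in the same window, shows the other kind of member, with 26.8 to 207.8 CPM in high_IMF against 18.2 to 57.8 CPM in low_IMF. Its log2 fold change of 1.29 did not pass (SE 0.45, edgeR adjusted p = 0.0590).

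The lowest median log2 fold change, -0.63, was shared by 3 overlapping windows between models 263 and 295, of which the first, models 263 to 292, is described. Of its 11 members 1 had a fold change above 0 and 3 were called lower. Its median was -0.68 without M001 and M0011, so it did not rest on these libraries. Its median deviation was -0.12 to -0.59 in high_IMF, with M0011 the highest and M0027 the lowest. In low_IMF it was -0.10 in F0010, close to M0011, and 0.12 to 0.39 in the other 6 libraries. In the last of the tied windows, M0011 (-0.08) lay above F0010 (-0.10), so whether the groups overlap depends on the window taken.

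That window ended in the 1 run of 3 neighbouring members called in the same direction, models 284, 286 and 292, all lower in high_IMF. Model 284 stood at 3.57 to 6.96 CPM in high_IMF and 8.75 to 22.3 CPM in low_IMF (log2 fold change -1.55, SE 0.26, edgeR adjusted p = 0.00175). Model 286 was more abundant, at 16.9 to 37.5 CPM against 38.5 to 89.0 CPM (log2 fold change -1.17, SE 0.26, edgeR adjusted p = 0.00894). Model 292 stood at 4.39 to 5.80 CPM against 6.29 to 10.03 CPM (log2 fold change -0.63, SE 0.18, edgeR adjusted p = 0.0278). None of the 3 models overlapped between the groups. Model 292 missed the threshold in 11 of 21 other fits, with a log2 fold change of -0.74 to -0.58, and models 284 and 286 only in the 2 fits on 6 libraries.

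**Figure D4:**
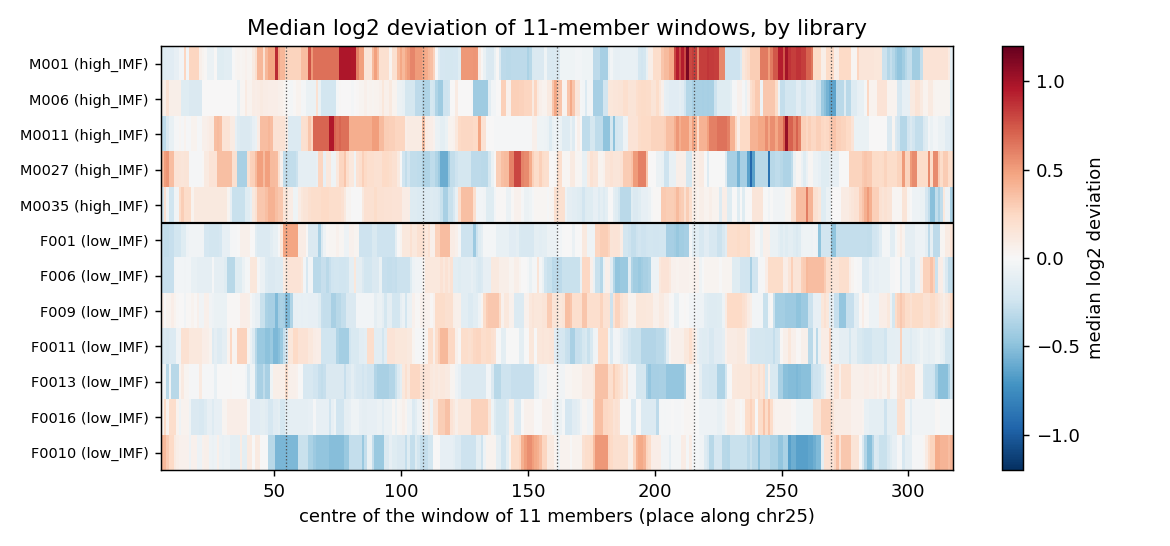
Each row is a library (high_IMF above the black line, low_IMF below) and the colour gives the median log2 deviation of 11 consecutive chr25 models, from blue (below 0) to red (above 0), by the place of the window's centre. M001 and M0011 share broad red stretches in block 2 and from the end of block 4 into block 5. F0010 is mostly blue in blocks 2 and 5 and red over much of block 4. Most other libraries show weaker and shorter stretches.

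Window profiles differed widely between libraries of the same group. The SD over the 312 windows was 0.38 in M001, 0.30 in M0027, 0.29 in M0011 and 0.29 in F0010, and 0.14 (F0016) to 0.21 in the other 8 libraries. M001 reached 1.13 at numbers 515 to 534 and M0011 reached 1.05 at numbers 592 to 610. M0027 went from 0.80 at numbers 357 to 390 down to -0.94 at numbers 558 to 578, a stretch in which M001 and M0011 stood above 0. Over the overlapping windows, which share members, the profiles of M001 and M0011 correlated with r = 0.73, the highest of the 66 pairs of libraries. The lowest was r = -0.66 between M001 and F009. These are descriptions of 12 libraries with shared models and a shared reference mean.

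The median fold change also differed between groups of models by abundance, without a steady order. These differences were not tested. In 4 groups by mean CPM, the median log2 fold change was 0.03 in the scarcest 81 models (1.00 to 4.96 CPM), 0.13 in the next 80, -0.04 in the 80 after those and 0.28 in the most abundant 81 (24.7 to 287 CPM). The most abundant group held 18 higher and 8 lower models, and the scarcest 5 higher and 3 lower. The shares over all models tested were 8.47% higher and 9.53% lower. Shares by abundance over all models are not given, so nothing is read from these counts. With M001 and M0011 left out, the medians were -0.03, 0.20, 0.01 and 0.11, so the most abundant group was no longer the highest.

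The fold changes of neighbours were weakly alike. Log2 fold changes of consecutive members correlated with r = 0.16 over 321 pairs. Where the numbers differed by 1, r was 0.25 over 173 pairs, and where they differed by more, 0.05 over 148 pairs. At 10 places apart it was -0.0078. Adjacent models are not independent: they may belong to 1 gene, or reads of one may be counted to the other.

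Within the groups, neighbours also varied together. After each group's mean was subtracted, the correlation over the 12 libraries between models whose numbers differ by 1 averaged 0.27. By place in the order, it averaged 0.21 at 1 place apart, 0.11 at 2 places, 0.10 at 5 places and 0.09 at 10 places. Between chromosomes, the value at 1 place ran from 0.11 (chr11) to 0.35 (chr38). The correlation of fold changes runs over pairs of models, and the within-group one over libraries, so their values at 10 places are not compared. No within-group value for models on different chromosomes is given. How much of it belongs to neighbours was therefore not tested.

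Both models passed the test in 10 of the 173 pairs with consecutive numbers. In 8 pairs (4.62%) they changed in the same direction, against 4.22% of 4292 such pairs on the other chromosomes, and in 2 pairs (1.16%) in opposite directions, against 0.815%. The higher pairs were 126 and 127, 189 and 190, 221 and 222, 318 and 319, 527 and 528, and 661 and 662. The lower pairs were 440 and 441, and 453 and 454. The opposite pairs were 570 and 571, and 848 and 849. Without M001 and M0011, both members were called in 1 of the 8 same-direction pairs (440 and 441) and in 1 of the 2 opposite pairs (848 and 849). How many pairs on the other chromosomes kept both calls in that fit is not given, so nothing particular to chr25 is read from this. The pairs were picked after their values were seen.

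Models 440 and 441 were the clearest pair. Model 441 (evm.model.chr25.441.g) stood at 14.9 CPM in M001, 10.5 in M006, 13.7 in M0011, 13.9 in M0027 and 13.5 in M0035. In low_IMF it stood at 58.3 CPM in F001, 42.6 in F006, 56.4 in F009, 59.4 in F0011, 39.8 in F0013, 51.6 in F0016 and 57.4 in F0010. The groups were far apart and narrow, at 13.3 ± 1.67 CPM (SD, n = 5) and 52.2 ± 7.96 CPM (SD, n = 7). On the log2 scale the change was -1.97 (SE 0.17, edgeR adjusted p = 8.79e-05), the lowest adjusted p among the 322 models. It kept its call in 20 of 21 other fits, with log2 fold changes of -2.04 to -1.90.

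Model 440 stood at 4.80 to 12.6 CPM in high_IMF (median 6.75) and 14.7 to 39.2 CPM in low_IMF (median 27.9), again with no overlap. Its log2 fold change was -1.82 (SE 0.30, edgeR adjusted p = 0.00165). The 2 models ranked the libraries differently. F009 was the lowest low_IMF library for model 440, at 14.7 CPM, but the middle one for model 441, at 56.4 CPM. Neither neighbour of the pair passed, as model 439 stood at -0.06 on the log2 scale (SE 0.16, edgeR adjusted p = 0.821) and model 442 at 0.38 (SE 0.24, edgeR adjusted p = 0.288).

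Models 661 and 662 were an unlike case, in which the call rested on M001 and M0011. Model 661 stood at 296 CPM in M001 and 213 in M0011, and at 95.5, 87.3 and 51.6 CPM in M0027, M0035 and M006. The low_IMF libraries ran from 36.2 to 91.0 CPM, so 2 high_IMF libraries lay inside that range. Model 662 stood at 25.8 and 20.5 CPM in M001 and M0011, at 5.40 to 6.69 CPM in the other 3 high_IMF libraries and at 1.62 to 7.84 CPM in low_IMF. With all libraries the log2 fold changes were 1.25 and 1.37 (SE 0.38 and 0.45, edgeR adjusted p = 0.0348 and 0.0464). Leaving out M001 and M0011 gave 0.33 and 0.26 (edgeR adjusted p = 0.534 and 0.699).

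In the opposite pairs, neighbours diverged. Model 849 stood at 2.70 to 8.66 CPM in high_IMF and 1.41 to 2.58 CPM in low_IMF, without overlap (log2 fold change 1.61, SE 0.30, edgeR adjusted p = 0.00316). Model 848, one number before it, stood at 0.608 to 3.12 CPM against 1.55 to 6.65 CPM (log2 fold change -1.24, SE 0.41, edgeR adjusted p = 0.0481), and missed the threshold in 16 of 21 other fits. Model 570 stood at 53.2 to 129.9 CPM against 36.0 to 66.9 CPM (log2 fold change 0.85, SE 0.22, edgeR adjusted p = 0.0159). Model 571 stood at 6.15 to 18.8 CPM against 17.1 to 30.2 CPM (log2 fold change -0.91, SE 0.28, edgeR adjusted p = 0.0361).

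Models 33, 631 and 690 rose most. Model 33 (evm.model.chr25.33.g) stood at 42.3 CPM in M001, 7.40 in M006, 14.0 in M0011, 19.6 in M0027 and 2.12 in M0035, and at 1.25, 4.38, 0.796, 1.77, 2.58, 2.86 and 4.41 CPM in F001, F006, F009, F0011, F0013, F0016 and F0010. The high_IMF libraries thus spanned a wide range, and M0035 lay below 4 of the 7 low_IMF libraries. Its fitted change was the highest of the 322 models, at 2.72 on the log2 scale (SE 0.57, edgeR adjusted p = 0.00672). Its neighbours in the order, models 16 and 36, had log2 fold changes of -0.31 and -0.20 and did not pass (edgeR adjusted p = 0.386 and 0.558).

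Model 631 (evm.model.chr25.631.g) stood at 18.6 CPM in M001, 6.43 in M006, 9.29 in M0011, 6.28 in M0027 and 7.76 in M0035. In low_IMF it stood at 1.35, 4.99, 0.796, 1.82, 2.15, 3.40 and 0.584 CPM in F001, F006, F009, F0011, F0013, F0016 and F0010. Every high_IMF library lay above every low_IMF library, and M001 stood apart at the top. The fitted change was 2.15 on the log2 scale (SE 0.46, edgeR adjusted p = 0.0073). Without M001 and M0011, models 33 and 631 fell just short of the threshold, with log2 fold changes of 1.91 and 1.67 (edgeR adjusted p = 0.0506 and 0.0507).

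Model 690 was more abundant and its change did not rest on M001 or M0011. It stood at 57.8 CPM in M001, 123.6 in M006, 71.8 in M0011, 52.0 in M0027 and 71.5 in M0035, and at 6.03 (F0010) to 29.4 CPM (F0013) in low_IMF with a median of 17.1. M006, which had the lowest chr25 median of the high_IMF libraries, was the highest for this model. The log2 fold change was 2.10 (SE 0.30, edgeR adjusted p = 7.94e-04), and it was called in 20 of 21 other fits. The adjacent members 685 and 693 had log2 fold changes of -0.61 and -0.16 and did not pass (edgeR adjusted p = 0.406 and 0.612).

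The other 7 models among the 10 with the highest fold changes were 616, 849, 126, 528, 702, 105 and 662, with log2 fold changes of 1.76 down to 1.37. Model 616 stood at 10.7 CPM in M001 and 2.54 to 3.78 CPM in the other high_IMF libraries, above the low_IMF range of 0.921 to 1.92 CPM. Model 126 stood at 33.1 to 110.4 CPM against 8.07 to 35.1 CPM, and model 702 at 17.1 to 57.7 CPM against 6.17 to 19.4 CPM. Among the high_IMF libraries, model 702 was highest in M0027 and M0035 and lowest in M0011 and M001, whereas models 616 and 126 were highest in M001. With M001 and M0011 left out, models 616, 849 and 702 were still called. Models 126, 105 and 528 were not, at 1.06, 1.03 and 0.92 on the log2 scale (edgeR adjusted p = 0.0752, 0.0841 and 0.193).

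**Figure D5:**
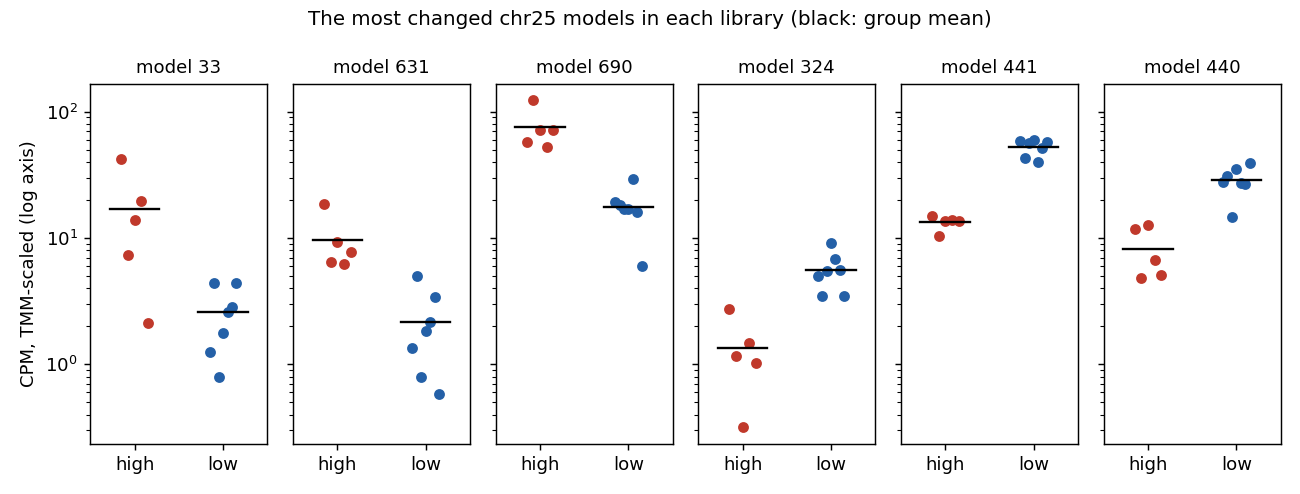
CPM scaled by library total and TMM factor (log axis) in each library for the 3 models with the highest and the 3 with the lowest log2 fold change (red, high_IMF, n = 5; blue, low_IMF, n = 7; black line, group mean). The groups overlap for model 33, where 1 high_IMF library stands at 2.12 CPM, and are apart for models 631, 690, 324, 440 and 441.

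The models that fell most were 324, 441 and 440. Model 324 (evm.model.chr25.324.g) stood at 2.76 CPM in M001, 1.17 in M006, 0.318 in M0011, 1.49 in M0027 and 1.03 in M0035. In low_IMF it stood at 4.98, 3.47, 5.51, 9.12, 6.79, 5.62 and 3.50 CPM in F001, F006, F009, F0011, F0013, F0016 and F0010. No high_IMF library reached the low_IMF range, and the log2 fold change was -2.08 (SE 0.41, edgeR adjusted p = 0.00492). Next to it, model 323 stood close to the threshold at -0.50 (SE 0.17, edgeR adjusted p = 0.0525) and model 322 was called lower at -0.60 (SE 0.17, edgeR adjusted p = 0.0279). Models 318 and 319, a few numbers before, were called higher at 1.03 and 0.99. The calls of models 318, 319 and 322 were each lost with 1 library left out. Without M0011, models 318 and 319 missed the threshold (edgeR adjusted p = 0.0539 and 0.0756). Model 322 missed it without F0011 and also without M0027 (edgeR adjusted p = 0.0589 and 0.0574).

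The remaining 7 of the 10 lowest were 284, 866, 848, 286, 395, 453 and 715, with log2 fold changes of -1.55 to -0.92. Model 866 was near the end of the order, at 17.4 to 23.5 CPM in high_IMF and 25.7 to 89.5 CPM in low_IMF, where F009 was highest (log2 fold change -1.33, SE 0.26, edgeR adjusted p = 0.00409). Model 395 stood at 0.635 to 2.16 CPM against 2.17 to 4.32 CPM, and missed the threshold in 14 of 21 other fits.

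The 5 most abundant members, models 51, 294, 229, 703 and 679, were not called. Their means over all libraries ran from 196 CPM (model 679) to 287 CPM (model 51), and their log2 fold changes were 0.28, -0.04, 0.34, 0.74 and 0.72 in that order (edgeR adjusted p = 0.422, 0.894, 0.368, 0.0533 and 0.107). Model 703 passed in 6 of 21 other fits, among them the one without M001 and M0011 (log2 fold change 0.93, edgeR adjusted p = 0.0297). Model 679 passed in 1 of 21. Of the 7 chr25 models above the band, 3 were called higher, models 115, 117 and 455, with log2 fold changes of 0.86, 1.15 and 0.54 (edgeR adjusted p = 0.00808, 0.00328 and 0.0271). Model 116 between the first 2 had 0.45 and did not pass (edgeR adjusted p = 0.196). Models 246, 411 and 516 did not pass either, at -0.45, 0.11 and 0.85 (edgeR adjusted p = 0.0586, 0.732 and 0.0785). Over all models tested, 8.47% were called higher.

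Many of the weaker calls were lost when 1 library was left out. For 32 of the 63 called models, the call was lost without 1 library that held the highest or lowest value of its group, most often M001 (13 models), M0011 (8) and M0027 (7). The clearest were model 662, whose edgeR adjusted p was 0.144 without M001, and model 222, at 0.119 without M0027. Some calls were lost without any of several libraries, so no single library decided them. Model 97 was lost without M0027, F0011 or M001, although its log2 fold change was -0.60 without M001 and -0.58 with all 12 libraries. Fits with 1 library fewer also hold less data, and the part of each library was not tested. In contrast, 29 of the 63 (20 higher, 9 lower) were called in all 12 fits that left out 1 library. In every fit other than the 2 on 6 libraries, 20 were called. The 12 higher ones were 127, 175, 178, 184, 208, 415, 544, 616, 690, 702, 801 and 849, and the 8 lower ones 284, 286, 324, 440, 441, 664, 709 and 866. Of these 12 higher models, 175, 178, 184 and 208 lie in block 2, within numbers 175 to 208. The shares of all models that keep or lose a call in these fits are not given. Nothing particular to chr25 is therefore read from these counts.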

How the data were processed

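The authors deposited raw counts per gene model in 1 table for 12 libraries. The submitters' processing notes name HISAT2 and DESeq2, with no version or role. Which counter, build, annotation or strand setting was used is not given in the sources used here. All columns were matched to samples by library number. Some column names are written with fewer zeros than the sample titles, among them those of M0011 and F0010. For these the match is inferred.

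Counts were filtered (filterByExpr), scaled by TMM and tested across all 14031 models with edgeR 4.0.16 (glmQLFit, glmQLFTest, two-sided) in R 4.3.3, with Benjamini-Hochberg adjustment and a threshold of 0.05. Standard errors came from the F statistic. Log2 CPM for the deviations used a prior count of 2. Full values are given for the 2 highest and the 2 lowest called fold changes, with further models named by rules on fold change, runs, windows and abundance. The members, these rules and the alternatives were chosen with earlier results of these data known. Blocks, abundance groups, pairs and within-group correlations were chosen after the values were seen.

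The test was tried on simulated data. Of 50 models changed at each fold, it called 0 at 1.5-fold, 13 at 2-fold, 46 at 4-fold and 45 at 8-fold. Of its 108 calls, 4 were false. Changes of 2-fold or less were thus mostly missed in the simulation. It held far fewer changed models than were called in the data (1188 higher and 1337 lower). Its misses therefore do not measure the sensitivity of the test on these libraries. The lowest chi-square per model over 66 library pairs was 35.6, so no pair agreed within sampling noise. Library totals of 13481727 to 18458606, together with TMM factors of 0.499 (M001) to 1.36 (F0013), set the counting error. Alternatives were other scalings, no filter, DESeq2 1.42.0, limma-voom (limma 3.58.1), libraries left out, a replicate block, and other bands and windows.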

Additional observations from a re-analysis of the deposited data

Results flagged for a closer look

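Dixon's test compared the highest and lowest library of 22 sets of values: the chr25 median, the 6 block medians and the CPM of models 33, 631, 324 and 441, each within high_IMF and within low_IMF. It marked 1 set, and chance alone marks about 1 in 20. That set was model 631 in high_IMF, where M001 had 18.6 CPM and the next library, M0011, had 9.29 CPM.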

How the results depend on the processing

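Against 41 higher and 22 lower members, DESeq2 called 66 higher and 28 lower, all 63 original calls among them. Raising the lower limit to a mean of 10 CPM keeps fewer members in the same fit, and 25 of the 41 higher ones were among them. That count is not a loss of calls, and the size of the smaller set is not given. Without M001 and M0011, 20 were higher, and without F001 and F009, 22 were higher and 9 lower. Leaving out 1 library gave 27 (without M0011) to 47 higher and 14 (without M0011, M0035, F001 or F0011) to 22 lower. The shares called over all models in the DESeq2 fit and in the fits without 1 library are not given here. Nothing particular to chr25 is therefore read from these counts. For the numbers 001, 006 and 0011 shared by the groups, the correlations of deviations were 0.000164, -0.124 and 0.114. No unmatched pairs were set beside these values, so they cannot decide whether the samples were paired. With the shared numbers as a replicate block on 6 libraries, edgeR called 0 higher and 0 lower members (46 at an unadjusted p under 0.05). The same 6 libraries without the block gave 1 and 1 (67 unadjusted). No other tool was run on those 6. The shares called over all models in these 2 fits are not given either, so nothing particular to chr25 is read from their counts. The difference of 0.13 in the chr25 median was 0.0798 without centring, 0.0726 over members not called and 0.11 to 0.15 with 1 library left out. The share of windows above 0 was 75.5% with 21 members and 58.0% (without M0027) to 69.2% with 1 library left out. Block 2 fell to 0.14 without M001 and M0011. The causes were not tested. Of the 20 models with the most extreme fold changes, 0 changed sign in any fit. Sign changed for 3 abundant models that were not called: model 51 (-0.0047) and 229 (-0.010) without M001 and M0011, and model 294 (0.036 there, 0.016 without F001 and F009, -0.13 to 0.044 with 1 library left out, above 0 without M001 (0.027) or M0035, 0.13 with the block and 0.12 on the same 6 libraries).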
